A study of Mus musculus with 7 samples.

Results

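EED peaks and H3K27me3 domains were compared in spermatocytes of wild-type CD1 mice at postnatal day 17 (P17). The members were the 2701 EED peaks and the 26387 H3K27me3 peaks of that stage, of 137861 peaks in the 5 peak lists of the series, and the H3K27me3 peaks are called domains here. EED came from 1 chromatin immunoprecipitation (ChIP) library and H3K27me3 from a pool of 2 replicates, per the labels. The H3K4me3 list of P17, also a pool of 2 replicates, and the H3K27me3 list of postnatal day 12 (P12), from 1 library of the same strain and genotype, were used beside them. The labels describe the cells as a Percoll fraction of digested testes; the purity of that fraction was not checked here, so signal from other testis cells was not separated. With 1 list per group there was no replicate error and no test, and the Wilson 95% intervals below treat peaks as independent and cover counting error only. The peak lists carry no height, score or depth, so a domain without an EED peak is a domain in which none was called.

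EED is a core subunit of Polycomb repressive complex 2 (PRC2), in which EZH2 or EZH1 methylates lysine 27 of histone H3 and SUZ12 holds the complex together. EED binds the trimethylated mark, H3K27me3, and this binding stimulates the enzyme, which lets the mark spread over broad domains from sites where PRC2 is recruited. In mammals those sites are often CpG-rich promoters of developmental genes, and the Hox clusters, which set position along the body axis, are among the classical PRC2 targets. The title of the series puts the silencing of soma-specific genes by this complex at the centre of the study.

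EED was called in few H3K27me3 domains, but most EED peaks lay in one. Of the EED peaks, 2223 of 2701 shared at least 1 bp with a domain (82.3%, 80.8% to 83.7%), and 2220 lay wholly inside one. Of the domains, 600 of 26387 held an EED peak (2.27%, 2.10% to 2.46%). EED peaks were short, with a median of 303 bp (quartiles 201 and 540 bp), against 2529 bp (1831 and 3808 bp) for the domains. They covered 15.6 bp per kb of domain over the whole list.

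Domains with EED were the wide ones. Their median width was 8579 bp (quartiles 5404 and 14344 bp), against 2491 bp (1819 and 3693 bp) for the 25787 domains without EED, so the quartile ranges of the 2 sets did not overlap. The ranges did overlap: the narrowest domain with EED measured 1299 bp, and the widest without EED 32328 bp.

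The share of domains with EED was higher at each step of width. None of the 104 domains under 1 kb held an EED peak, which allows a share of up to 2.88% by the limit of 3 counts (Wilson upper bound 3.56%). The share was 0.0960% at 1 to 2 kb (8 of 8337 domains), 0.783% at 2 to 5 kb (112 of 14312) and 7.36% at 5 to 10 kb (224 of 3044). It reached 34.8% at 10 to 20 kb (170 of 489; 30.7% to 39.1%) and 85.1% at 20 kb or more (86 of 101; 76.9% to 90.8%). A wide domain offers more room for a peak, and the part of this in the higher share was not tested. The length of EED per kb, summed over all domains of a class with or without EED, was also higher in each wider class. It was 0.18 bp per kb at 1 to 2 kb, 1.04 at 2 to 5 kb and 10.1 at 5 to 10 kb, then 80.0 at 10 to 20 kb and 209 bp per kb at 20 kb or more. With H3K27me3 peaks within 3 kb merged into 1 domain, the class of 10 to 20 kb had EED in 14.1% of domains and 23.0 bp per kb, and that of 20 kb or more in 40.8% and 74.98 bp per kb. Domains of 10 kb or more held 81.5% of the EED length that lay in domains, and made up 10.6% of all domain length.

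**Figure D1:**
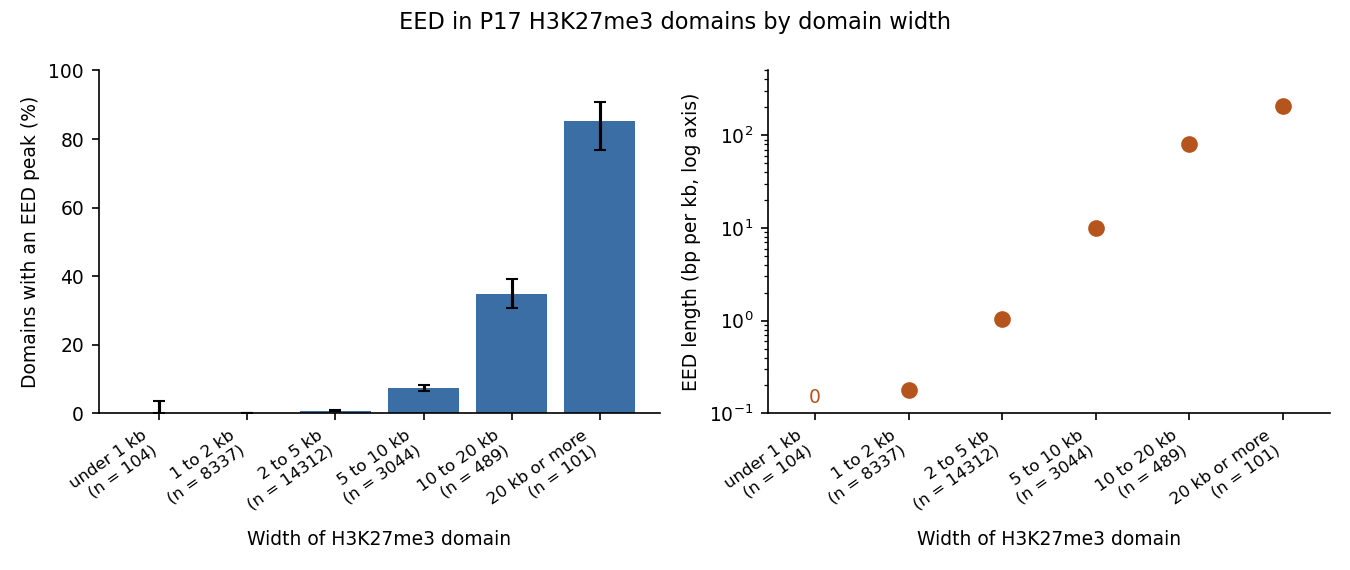
Left: percentage of P17 H3K27me3 domains with at least 1 EED peak in 6 width classes, with Wilson 95% intervals as error bars. Right: EED peak length in bp per kb of domain, summed over each class, on a log axis, with the class at 0 written as 0. Both are higher in each wider class, up to 85.1% and 209 bp per kb at 20 kb or more.

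Among domains with EED only, the amount of EED per kb was higher with width from 5 kb upwards but not below. The median EED length was 73.8 bp per kb at 2 to 5 kb (quartiles 50.8 and 123), 66.4 bp per kb at 5 to 10 kb (quartiles 34.9 and 169), 162 at 10 to 20 kb (73.5 and 312) and 200 at 20 kb or more (96.7 and 335). These quartile ranges overlapped. The 8 domains of 1 to 2 kb with EED had a median of 128 bp per kb, each holding 1 peak. EED peaks were themselves longer in wider domains, with medians of 246 bp at 2 to 5 kb, 287 bp at 5 to 10 kb, 381 bp at 10 to 20 kb and 387 bp at 20 kb or more.

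The number of EED peaks per domain was uneven. Domains with EED held a mean of 3.71 and a median of 2 peaks, with a maximum of 47; 242 of the 600 held exactly 1 and 50 held at least 10. The 100 domains with most EED peaks accounted for 50.1% of all pairs of EED peak and domain, and the 10 with most for 11.1%. The mean count per domain with EED was 2.17 at 5 to 10 kb, 4.47 at 10 to 20 kb and 9.50 at 20 kb or more. Neighbouring EED peaks of a domain of 5 kb or more lay a median of 216 bp apart (quartiles 57 and 677 bp; 1583 gaps in 328 domains). When EED peaks within 1 kb of each other were merged, the mean was 1.49 per domain with EED.

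**Figure D2:**
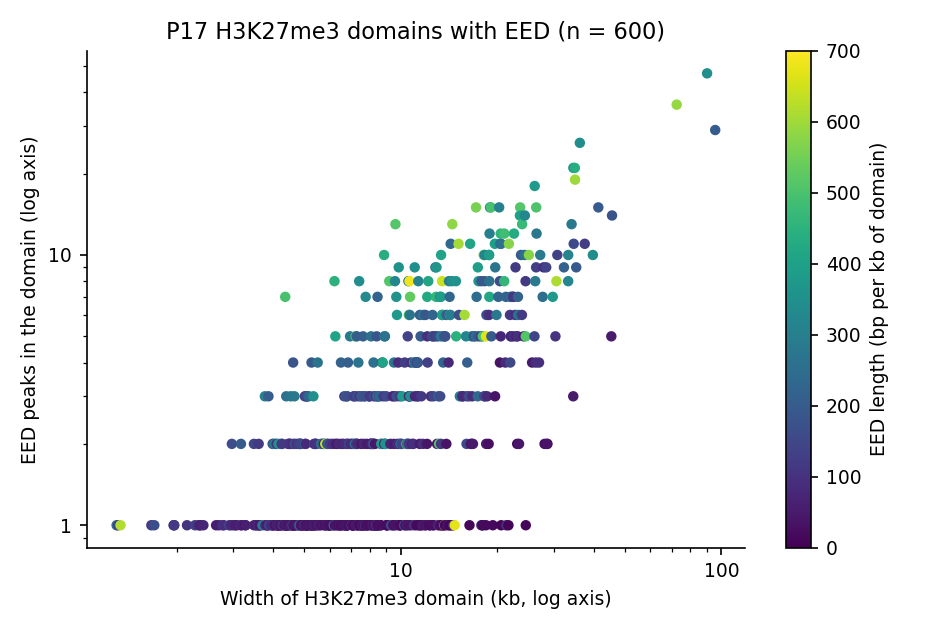
Each point is 1 of the 600 P17 H3K27me3 domains with EED, with its width in kb and its number of EED peaks on log axes, and its EED length per kb as colour. The highest count is 47 peaks, and domains with 1 peak measure 1.30 to 24.5 kb.

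The domains with most EED peaks included the 3 widest domains of the list (coordinates are mm9, counted from 1). The domain at chr11:96129003-96219277 held 47 EED peaks with 350 bp of EED per kb, that at chr2:74482891-74555463 held 36 with 588 bp per kb, and that at chr15:102738509-102834200, the widest at 95692 bp, held 29 with 201 bp per kb. These parts of chromosomes 11, 2 and 15 are known to hold the HoxB, HoxD and HoxC clusters; no mm9 annotation was used here, so these names are background. First to last, the EED peaks spanned 95.4% of the chromosome 11 domain, 86.2% of that on chromosome 2 and 94.2% of that on chromosome 15.

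Then came 5 further domains with 18 or more EED peaks. They lay at chr2:105498170-105534362 (26 EED peaks), chr14:122858619-122893539 and chr5:140009114-140043669 (21 each) and chr3:128896820-128931788 (19), and at chr12:57617439-57643608 (18). A further 7 domains held 15 EED peaks each and were 17169 to 41330 bp wide, with 199 to 558 bp of EED per kb. The widest of these 7 were chr8:59788783-59830112 and chr8:12378913-12405368.

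A high density did not need many peaks. Of domains of 5 kb or more, the highest EED length per kb was at chr13:95635481-95649175, where 1 EED peak of 9534 bp covered 696 bp per kb. The next was chr11:18768833-18779482 with 683 bp per kb from 8 peaks, and then chr15:35220548-35235282, where 1 EED peak of 9875 bp covered 670 bp per kb. They were followed by chr5:102081805-102100249 (665 bp per kb, 5 peaks) and chr9:91253564-91267014 (645, 8 peaks). The widest EED peak over a domain, chr10:50614356-50624645 (10290 bp), lay in a domain of 24542 bp with 5 EED peaks.

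Width alone did not go with EED in every case. The fifth in width, chr4:139355374-139400747 (45374 bp), held 5 EED peaks with 49.7 bp per kb, and the fourth, chr11:96025689-96071294 (45606 bp), held 14 with 178 bp per kb. Of the 590 domains of 10 kb or more, 334 had no EED peak (56.6%, 52.6% to 60.6%), and 15 of these were 20 kb or more. The widest without EED were chr5:35718973-35751300 (32328 bp) and chr10:80913213-80942414 (29202 bp). They were followed by chr11:117267502-117294035 (26534 bp), chr8:123403350-123429736 (26387 bp) and chr8:123592350-123618567 (26218 bp). The nearest EED peak to the 15 was a median of 369 kb away (19.4 kb to 3087 kb), with 3 of them nearer than 100 kb. All 15 overlapped H3K4me3 at P17 and H3K27me3 at P12, as did all 86 domains of 20 kb or more with EED.

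Domains with EED carried more of the other marks per kb than domains without EED in each width class from 2 kb upwards. At 10 to 20 kb, H3K4me3, a mark of promoters, covered 534 bp per kb of the 170 domains with EED and 361 bp per kb of the 319 without. It overlapped 170 of 170 with EED (97.8% to 100%) and 295 of 319 without (92.5%, 89.0% to 94.9%). P12 H3K27me3 peaks covered 738 bp per kb of the domains with EED and 510 bp per kb of those without. The domains with EED were also wider within the class, with a median of 13474 bp against 11818 bp, and the part of this difference in width was not tested.

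The order was the same in the classes on either side. At 5 to 10 kb, H3K4me3 covered 579 bp per kb with EED and 418 without, and P12 H3K27me3 565 and 402 bp per kb. At 20 kb or more, H3K4me3 covered 436 bp per kb with EED and 369 without, and P12 H3K27me3 801 and 628 bp per kb, over 86 and 15 domains. At 1 to 2 kb H3K4me3 went the other way, with 333 bp per kb over the 8 domains with EED and 369 without. At 2 to 5 kb, P12 H3K27me3 lay on 81 of 112 domains with EED (72.3%, 63.4% to 79.8%) and on 4581 of 14200 without (32.3%, 31.5% to 33.0%). In each of these classes the domains with EED were also the wider. At 2 to 5 kb their median was 4181 bp, against 2878 bp without EED, and the part of this difference in width was not tested. Within domains of 10 to 20 kb with EED, 84.1% of the length of the EED peaks lay under H3K4me3, against 53.4% of the length of the domains; at 20 kb or more the shares were 75.3% and 43.6%.

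EED lay towards the middle of the domains. In domains of 5 kb or more, 674 of 2063 EED peak centres lay in the central 20% of the domain (32.7%, 30.7% to 34.7%), where length alone gives 20%. Domains have no strand in the files, so positions were folded about the middle into 5 zones, each with 20% of the length. The shares in the next zones outwards were 28.2%, 21.9%, 14.8% and, in the outermost zone, 2.42% (50 centres; 1.84% to 3.18%). Measured as length, EED covered 321 bp per kb of the central zone and 24.8 bp per kb of the outermost zone of the 480 domains with EED.

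The profile was flatter in the widest domains. At 5 to 10 kb, 36.2% of EED centres lay in the central zone and 8.85% in zone 4, the last but one. At 10 to 20 kb the shares were 34.1% and 13.4%, and at 20 kb or more 29.3% and 19.6%. The outermost zone stayed low in each class, at 1.44%, 0.921% and 4.41%. In the 152 domains of 5 kb or more with exactly 1 EED peak, 39.5% of the peaks were centred in the central zone (32.1% to 47.4%) and 1.97% in the outermost.

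**Figure D3:**
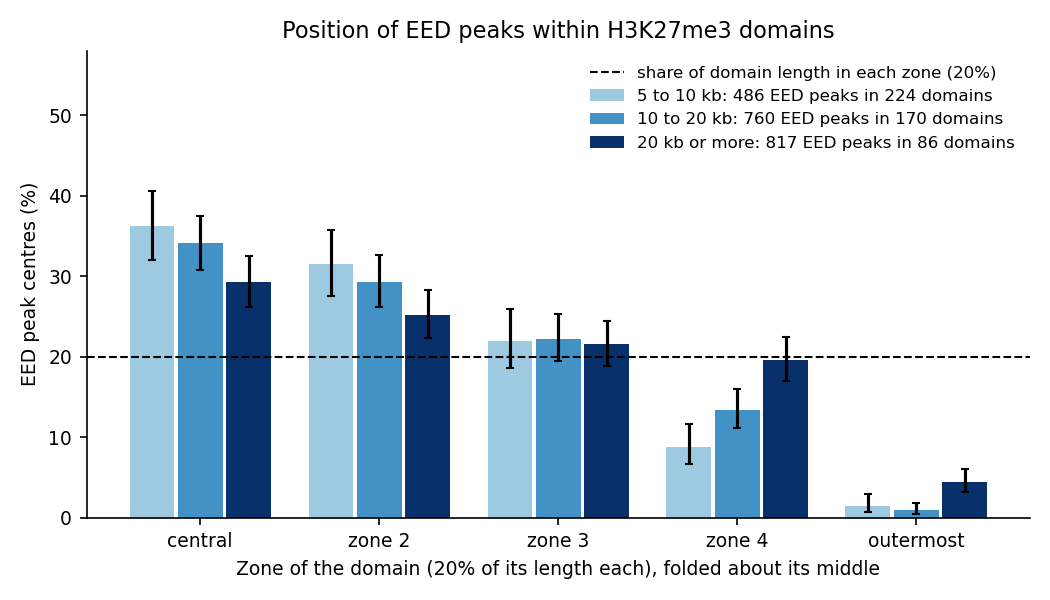
Percentage of EED peak centres in 5 zones of the H3K27me3 domain of equal length, folded about the middle, for 3 width classes, with Wilson 95% intervals as error bars; the dashed line is the 20% of domain length in each zone. The central zone lies at 29.3% to 36.2% and the outermost at 0.921% to 4.41%.

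Few EED peaks approached a domain's edge. The centre of an EED peak lay a median of 2526 bp from the nearest edge in domains of 5 to 10 kb, 4888 bp at 10 to 20 kb and 9090 bp at 20 kb or more. Only 22 of the 2063 centres lay within 1 kb of an edge (1.07%), a zone that made up 14.8% of the length of these domains. The median width of EED peaks ran between 327 and 364 bp over the 5 zones. In the 328 domains of 5 kb or more with 2 or more EED peaks, the run from the first to the last covered a median of 40.9% of the domain (quartiles 23.2% and 57.3%), and 55.0% at 20 kb or more.

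A stretch on chromosome 6 held a dense run of EED peaks with no P17 H3K27me3 peak. It lies at chr6:52097777-52230508, is 133 kb wide, and held 47 EED peaks that covered 404 bp per kb; merged within 1 kb they made 12, against at most 5 in any other such stretch. Of the 26367 stretches between neighbouring domains, 403 held any EED peak (1.53%); 379 of these held 1, and the next after chromosome 6 held 5, over 2856 kb at chr1:84933010-87789489. After it came chr5:14818517-15437337 and chr8:19537317-23149049 with 3 EED peaks each and, narrowest of those with 2, chr17:24403402-24487196. These next 4 stretches held 0 P12 H3K27me3 peaks lying wholly inside them.

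By its EED per kb the stretch stood among the denser domains with EED, below the densest. Its 404 bp of EED per kb stood between the 588 and 201 bp per kb of the 3 widest domains. Of the 3634 domains of 5 kb or more, 480 held EED and 48 reached the value of the stretch, with a maximum of 696 bp per kb. Its EED peaks were long, with a median of 744 bp (quartiles 372 and 1562 bp), against 345 bp (235 and 607 bp) for EED peaks over a domain. For those over domains of 20 kb or more the median was 387 bp (256 and 733 bp), so the quartile ranges overlapped. The widest EED peak over no domain, chr6:52165717-52171740 (6024 bp), was one of them. The 47 peaks began 13.4 kb from the left end of the stretch and ended 5.56 kb from the right end.

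The other lists were not empty there. At P12, 26 H3K27me3 peaks lay in the stretch and covered 858 bp per kb, among them the widest of the whole P12 list, chr6:52149265-52192271 (43007 bp). All 47 EED peaks overlapped a P12 H3K27me3 peak, 25 of them the widest one. With 858 bp per kb covered, most positions in the stretch would overlap one. The share of all EED peaks over P12 H3K27me3 was not computed. At P17, 22 H3K4me3 peaks lay wholly inside the stretch and covered 461 bp per kb, and 35 of the 47 EED peaks overlapped one. A further H3K4me3 peak, 131.7 to 132.8 kb from the left end, crossed the right end of the stretch and was not counted. The share of EED peaks over H3K4me3 was higher in the domains. It was 93.2% at 5 to 10 kb, 92.2% at 10 to 20 kb and 82.9% at 20 kb or more. Among stretches between P17 domains, the next in number of P12 H3K27me3 peaks held 6 wholly inside it, with 0 EED peaks. The domains on both sides are numbered 20581 and 20582 in the list, in which no number is missing anywhere. Numbers are missing from the other lists used, and whether peaks were left out of this list before numbering was not known. The domains on both sides measure 1799 and 2682 bp, and neither holds EED.

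**Figure D4:**
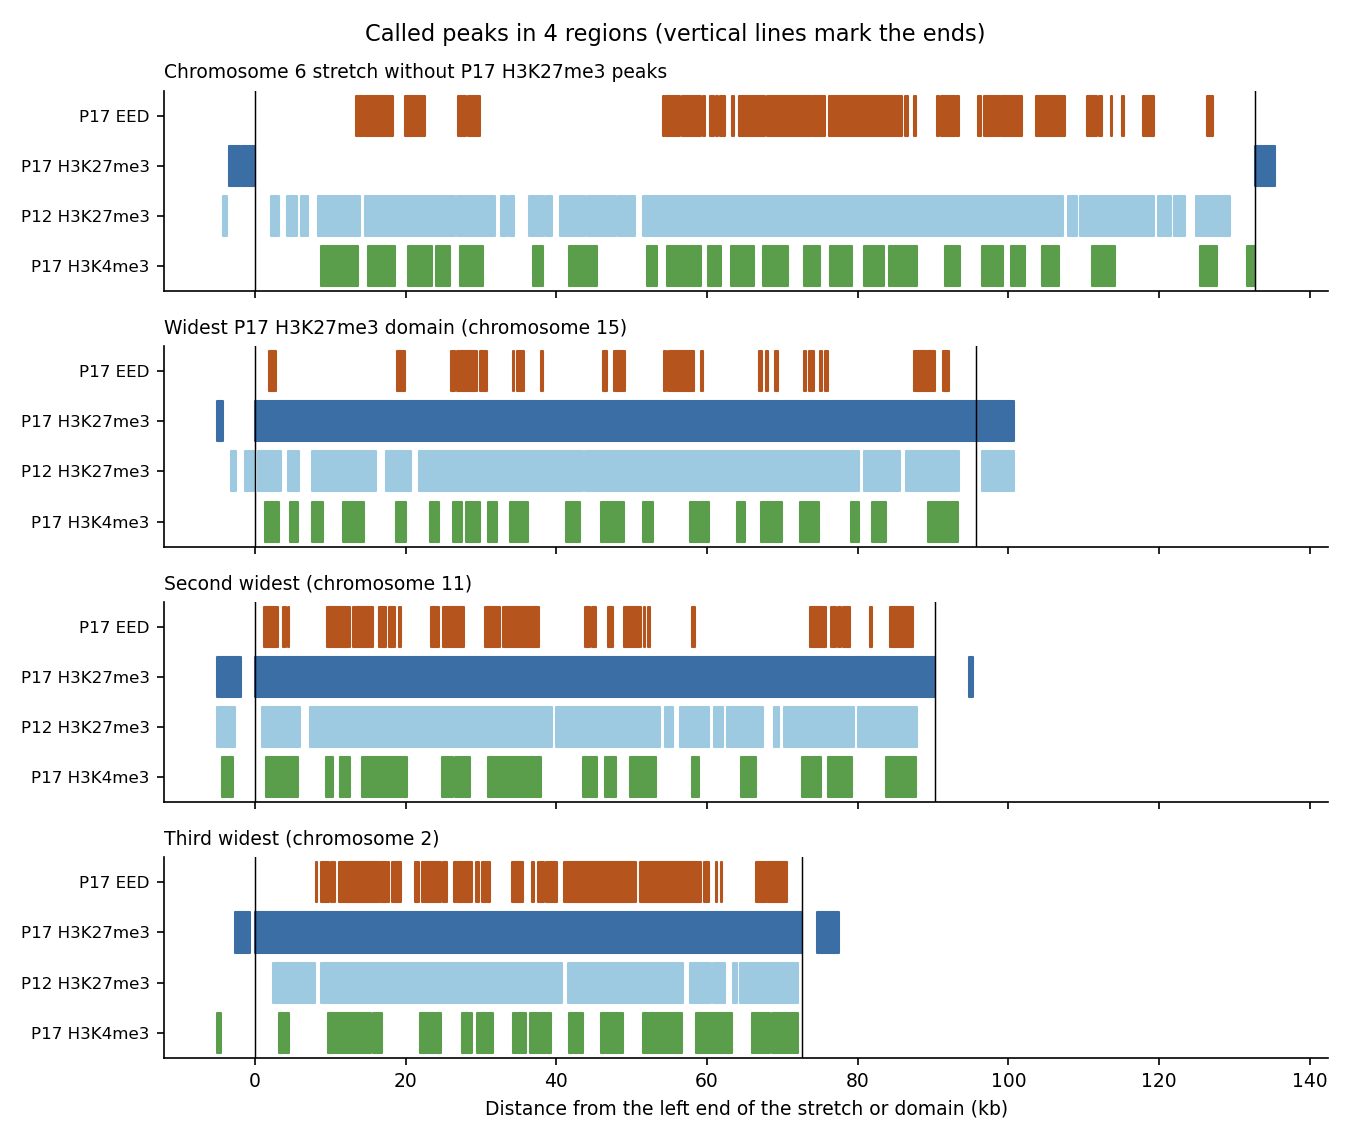
Called peaks of EED, H3K27me3 and H3K4me3 at P17 and of H3K27me3 at P12 in the chromosome 6 stretch and in the 3 widest P17 H3K27me3 domains, drawn to scale in kb from the left end of each; vertical lines mark the ends and bars outside them are flanking peaks. The stretch holds 47 EED and 26 P12 H3K27me3 peaks but none of P17 H3K27me3.

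The count file of the same P17 H3K27me3 pool gives reads per gene body. It holds no positions within genes and no input subtraction is stated, so it gives levels of genes and does not show enrichment within the stretch. This part of chromosome 6 is known to hold the HoxA cluster, as background, since the count files give gene symbols only. In a GRCm38 gene table, used for order only, the Hoxa genes follow each other with Skap2, a signalling adaptor gene, and Evx1, a homeobox gene, on either side. The promoters of the Hoxa genes with most reads (Hoxa3) and with fewest reads among those with an entry (Hoxa6) are shown to give the kind of sequence at such genes. They are from RefSeq, GRCm38.p6, minus strand, 250 bases before to 50 after the start, 5′ to 3′, with each CG in capitals.
Hoxa3: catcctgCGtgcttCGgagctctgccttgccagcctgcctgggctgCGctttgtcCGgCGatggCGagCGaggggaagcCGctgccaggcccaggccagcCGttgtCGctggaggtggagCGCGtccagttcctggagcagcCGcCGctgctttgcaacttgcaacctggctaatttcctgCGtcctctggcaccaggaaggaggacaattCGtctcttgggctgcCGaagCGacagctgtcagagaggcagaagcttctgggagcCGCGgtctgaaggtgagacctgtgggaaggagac
Hoxa6: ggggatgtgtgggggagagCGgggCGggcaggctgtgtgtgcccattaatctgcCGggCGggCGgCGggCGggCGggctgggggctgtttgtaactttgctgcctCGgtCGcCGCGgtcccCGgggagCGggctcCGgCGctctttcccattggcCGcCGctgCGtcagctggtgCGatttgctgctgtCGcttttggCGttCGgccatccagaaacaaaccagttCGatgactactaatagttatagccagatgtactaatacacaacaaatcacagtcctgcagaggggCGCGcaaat
The Hoxa3 promoter holds 20 CG and that of Hoxa6 holds 26. CG reads the same on both strands. Over 10 promoters of 9 Hoxa genes the count ran between 4 and 45 with a median of 17.5, against a median of 7 (quartiles 3 and 20) over 32851 promoters, of which 94.6% hold CG at least once.

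The 10 Hoxa genes described here together held 28066 reads at P17, of the 26664736 in the file. CPM values, read counts scaled to the total of the file, are not divided by gene length, so levels of different genes are not compared. Hoxa3 held 11850 reads at P17 (444 CPM; exact Poisson 95% interval 436 to 452), against 4926 at P12 (366 CPM). Hoxa10 held 4497 reads at P17 (169 CPM), against 1680 at P12 (125 CPM). Both are homeobox transcription factor genes, as are all Hox genes, and their counts share reads wherever annotated gene bodies overlap, so single genes of a cluster are uncertain.

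The remaining Hoxa genes had fewer reads. Hoxa7 held 2293 reads at P17 against 813 at P12, Hoxa9 2127 against 758, and Hoxa11 1831 against 782. Hoxa5 held 1671 reads at P17 against 545 at P12, Hoxa13 1337 against 494, and Hoxa2 1244 against 442. Hoxa6 held 929 reads at P17 against 363 at P12, and Hoxa4 287 against 208. Total reads were 26664736 at P17 and 13462873 at P12, and the CPM values allow for this difference.

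A ratio of P17 to P12 within a gene needs no gene length. The 10 Hoxa genes had a median log2 ratio of CPM of 0.44, against 0.46 for 10 Hoxb, 0.39 for 9 Hoxc and 0.37 for 9 Hoxd genes, and -0.08 for all genes. Of 21808 genes, 21.2% had an interval above the all-gene median and 9.98% one below it. The intervals of 9 of the 10 Hoxa genes lay above that median and that of 1, Hoxa4 at -0.52 (-0.78 to -0.26), lay below it. The highest Hoxa ratio was that of Hoxa5 at 0.63 (0.49 to 0.77). The HoxB, HoxC and HoxD clusters are placed at called domains as background only. The intervals of 10 of 10 Hoxb, 9 of 9 Hoxc and 8 of 9 Hoxd genes lay above the all-gene median. Genes with more reads have narrower intervals. Median P17 CPM was 65.7 for Hoxa, 53.9 for Hoxb, 52.5 for Hoxc and 63.8 for Hoxd genes, against 13.5 for all genes. No share among genes of like read count was computed, and overlapping gene bodies share reads. The extreme ratios of these clusters were Hoxb2 at 0.78 and Hoxb13 at 0.20, Hoxc4 at 0.87 and Hoxc8 at 0.24, and Hoxd9 at 0.65 and Hoxd8 at -0.36. The median ratio of the Hoxa genes thus lay between those of the other clusters, while the P17 list has no peak over the stretch; the cause of the missing peaks was not tested.

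**Figure D5:**
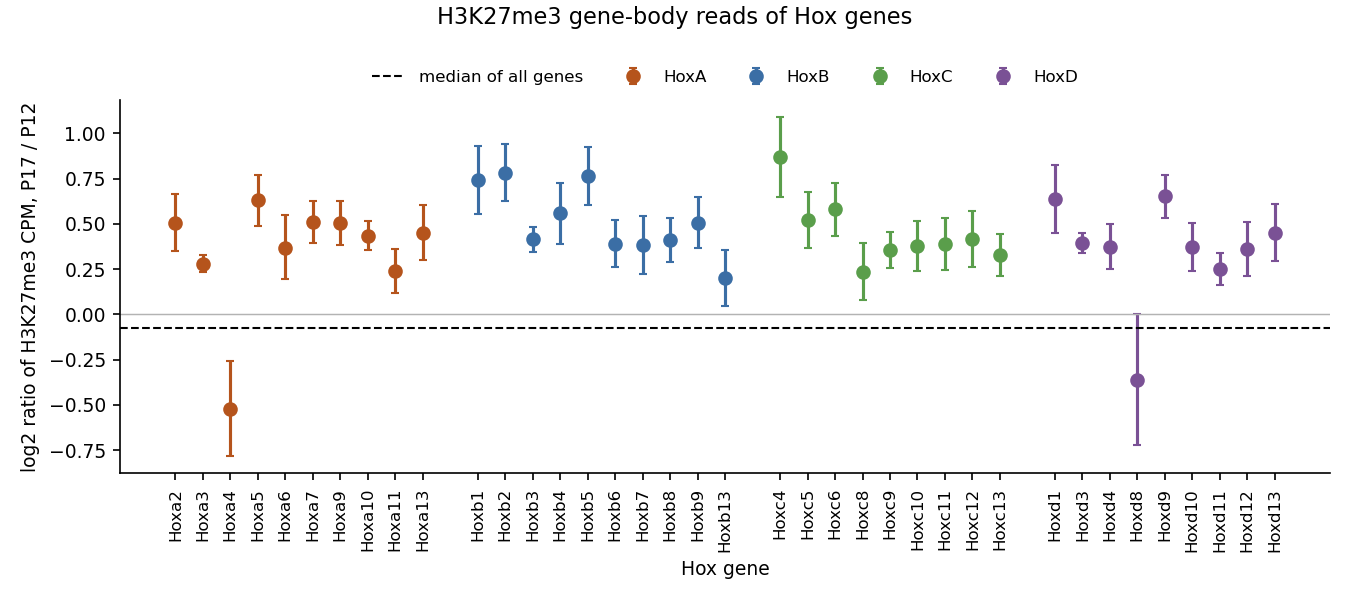
Log2 ratio of H3K27me3 gene-body CPM, P17 over P12, for 38 Hox genes in 4 clusters, with exact conditional 95% intervals that cover counting error only; the dashed line is the median of all genes, -0.08. The Hoxa genes, placed as background in the stretch without a P17 domain, run from -0.52 to 0.63, in the range of the other clusters apart from Hoxa4.

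The genes beside the cluster and the housekeeping genes had lower ratios than most Hox genes. Evx1 stood at a log2 ratio of 0.25 (0.16 to 0.35), with its interval above the all-gene median, as for most Hox genes. Skap2 stood at -0.21 (-0.30 to -0.13), below it, and Hibadh, a valine-breakdown gene, at -0.08 (-0.20 to 0.05). The 11 housekeeping genes had a median of -0.19. Of their intervals, 1 lay barely above the all-gene median of -0.0773, that of Actb (-0.0765 to 0.771). Another 3 lay below it, those of Hprt, Tbp and B2m. P17 counts of the 11 genes ran between 43 reads for the cyclophilin gene Ppia and 442 for the adaptor gene Ywhaz.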

How the data were processed

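The authors' deposited peak lists give chromosome, start and end in bp and a MACS peak name. Build mm9 and the tools Bowtie, SAMtools and HTSeq are named, without role or version, in the submitters' processing notes. The level 5 for a false discovery rate comes from the file names. For MACS, the version and settings, and for the lists, the depth, were not given in the sources used here. The deposited count files hold raw read counts per gene body, made with multiBamCov per the file names. They hold 26664736 reads at P17 and 13462873 at P12, with no input subtraction stated. Input was not used here.

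The sample titles gave the groups, because the antibody given for P17 H3K4me3 is that of H3K27me3. An overlap was at least 1 bp, but P12 H3K27me3 and P17 H3K4me3 peaks counted in a stretch between domains lay wholly inside it. Width classes broke at 1, 2, 5, 10 and 20 kb, and positions used EED peak centres in domains of 5 kb or more. Ratios used the 21808 genes with at least 20 reads over both files; the 146 symbols with several entries were left out of per-gene work. Overlap functions were tested on simulated peaks. Python 3.11.15, numpy 2.4.6, pandas 2.3.3, scipy 1.17.1 and matplotlib 3.10.9 were used.

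Regions named were the 10 domains with most EED peaks, the 5 of 5 kb or more with most EED per kb, the 5 widest, the 5 widest without EED, the 5 stretches with most EED and the widest EED peaks. Genes named were the Hox clusters, the neighbours of HoxA and a housekeeping list; some results that the rule would name are not reported here. Members, lists and rules were chosen with earlier results of these data known, and the ratio to P12 and the comparison of other marks by width class were added after the files were seen. Alternatives covered the overlap, merging of either list, narrow EED peaks, the X chromosome, the domains with most EED, width limits and the read total.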

Additional observations from a re-analysis of the deposited data

How the results depend on the processing

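Of 34 alternative values, 19 stayed inside the 95% interval of the value reported (for the count in the stretch, within 1.5 times). The interval for EED length per kb, 15.56 to 15.61, treats each bp as independent, so even small shifts fell outside it. That for the median Hoxa gene is the interval of Hoxa11 alone. The tally is therefore a rough count and does not measure robustness for these 2 results. The share of EED centres in the central zone did so throughout, between 31.1% and 34.5%. With EED peaks within 1 kb merged (1334 regions), 66.8% lay over a domain, each domain with EED held a mean of 1.49, and the chromosome 6 stretch held 12. With H3K27me3 peaks within 3 kb merged (21365 domains), 2.59% of domains had EED, with a mean of 4.02 peaks and 14.6 bp per kb, and 79.4% of domains of 10 kb or more had none; the share with EED was 14.1% at 10 to 20 kb and 40.8% at 20 kb or more. Without the narrowest 25% of EED peaks, 93.3% of EED peaks lay over a domain, 1.93% of domains had EED and coverage was 14.9 bp per kb. On autosomes coverage was 15.65 bp per kb, against 15.59 with the X chromosome. Without the 10 domains with most EED peaks the mean was 3.35 and coverage 13.5 bp per kb. With wide taken as 20 kb or more, 14.9% of wide domains lacked EED. The median Hoxa gene stood at 65.7 CPM over the full total and at 77.6 CPM without the 13 entries with most reads and repeated symbols, a change that moved log2 ratios by under 0.01 (median 0.44). The lists carry no depth, so its effect on the EED calls was not tested. No paired analysis was possible because each group had 1 list and the columns carry no replicate numbers.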

Other observations

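EED peaks over no domain and outside the chromosome 6 stretch numbered 431. They were narrow, with a median width of 173 bp (quartiles 154 and 193 bp), against 345 bp for the 2223 peaks over a domain. Their median distance to the nearest domain was 55.5 kb; 9 lay within 1 kb and 73 within 10 kb. Without the stretch, 83.8% of the other 2654 EED peaks lay over a domain.

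Chromosomes differed in the share of their domains with EED, which was 2.27% over all, but this spread was not tested. Of all domains of 10 kb or more, 256 of 590 held EED (43.4%). On chromosome 18 the share of all domains was 4.14% (35 of 845), with EED in 8 of 17 domains of 10 kb or more. On chromosome 13 it was 3.94% (49 of 1244), where 22 of 25 domains of 10 kb or more held EED. On chromosome 8 it was 1.16% (19 of 1645), with EED in 10 of 34 such wide domains, and on chromosome 17 3 of 21 wide domains held EED. The X chromosome had EED in 1 of 117 domains and 5 EED peaks in all, 1 of them over a domain. Chromosome 6 had the lowest share of EED peaks over a domain among autosomes, 57.1% (104 of 182; Wilson 95% interval 49.9% to 64.1%), and 77.0% without the stretch.

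Peak names are numbered. In the EED list 335 of the numbers up to 3036 were missing (11.0%), and in the P17 H3K27me3 list none. The P12 H3K27me3 list lacked 1957 of the numbers up to 14985 (13.1%). In the P17 H3K4me3 list 132 of those up to 51735 were missing (0.255%).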
